A study of Callithrix jacchus with 54 samples.

Results

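The 4 libraries described here measured what enforced SOX17 did to differentiating marmoset cells over the first 48 h, before any reporter-positive cells were sorted. They were chosen by their labels: 2 libraries of cells cultured for 48 h with enforced expression of SOX17 (SOX17 + BLSE) and 2 of cells cultured for 48 h without it (BLSE), out of 54 libraries in the series. All 4 came from the common marmoset embryonic stem cell line CMES40, whose cells (cjESCs) had been kept in DK20FA medium before aggregation, and all 4 carried the reporters BLIMP1-tdTomato (BT) and NANOS3-eGFP (NG). The genotype of both groups was given as rtTA, tetO-BLIMP1, SOX17-GR and a destabilised TFAP2C transgene (DD-TFAP2C), the digit of which runs on from library to library in the labels. Both groups received BMP4, LIF, SCF, EGF and Rock inhibitor, and all cells were taken without sorting for the reporters. Per the study's methods the cells of every library were collected on a cell sorter, so unsorted below means not sorted for the reporters. SOX17-GR is human SOX17 joined to the ligand-binding part of the glucocorticoid receptor, and per the study's methods it was switched on with dexamethasone, which the BLSE cells did not get. An action of SOX17 and an action of dexamethasone itself therefore cannot be told apart within these 4 libraries. The transgenes were put in by piggyBac and a drug-selected colony line was used, so the comparison rests on 1 engineered line, and reads of a human transgene cannot be separated from those of the marmoset gene.

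SOX17 is a transcription factor of the SRY-box family that is best known for endoderm and vascular development, and in primates it also specifies primordial germ cells (PGCs), the founders of eggs and sperm. In cultured primate cells BMP4 opens the way to PGC-like cells, SOX17 acts early, and PRDM1 (BLIMP1) and TFAP2C act with it while somatic genes are kept low. In unsorted cells only some have taken the germ cell path, so a bulk level mixes cell types: more cells of a type and more RNA per cell cannot be told apart.

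Expression was given by the authors as TPM, a transcript abundance scaled for gene length and library size, for genes shared between marmoset and human. The 4 libraries held 836488 to 839203 TPM over the listed genes and 11891 to 12242 genes above 0. The number of reads behind them is unknown from the files. The Pearson correlation of log2(TPM + 1) between the 2 libraries of a group was 0.991 across genes in both groups. Over the replicate pairs of all 27 conditions it was 0.977 to 0.994. Differences were tested with limma on log2(TPM + 1) for 11197 genes of 14812, with the spread estimated over all 54 libraries (27 residual degrees of freedom) and Benjamini-Hochberg adjustment over all tested genes. Below, a gene is said to have risen or fallen where its adjusted p by limma was under 0.01, and is called a DEG where it also changed more than 4-fold and had a mean log2(TPM + 1) above 1.5. Each difference is on the log2(TPM + 1) scale, which understates the change of low genes, and is given as SOX17 + BLSE minus BLSE ± SE with 2 libraries in each group. The study's methods call these biological duplicates. With 2 libraries against 2, an exact permutation test of 1 gene could not give a p below 0.33.

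At 48 h, 1866 genes (16.7% of those tested) passed an adjusted p of 0.01 by limma, 1153 of them higher with SOX17 (10.3%) and 713 lower (6.37%). Of these, 226 were DEGs (2.02%), 133 higher (1.19%) and 93 lower (0.831%). When the spread was estimated from the 4 libraries alone, 97 genes passed, 70 higher and 27 lower, all 97 among the 226. Both SOX17 + BLSE libraries lay above both BLSE libraries in 40.5% of the tested genes and below both in 24.6%, and the groups did not overlap in any gene said below to have risen or fallen. The median difference over all tested genes was 0.0995, so the whole distribution sat slightly above 0. Scaling the libraries by median ratios removed that shift and turned the split to 105 higher and 115 lower, and quantile normalization gave 105 higher and 107 lower. Among the genes just past the 4-fold line were APLNR at -2.00004 and VGLL1 at 2.01. ENC1 at -1.99 and CDH10 at 1.99 were just short of it.

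**Figure D1:**
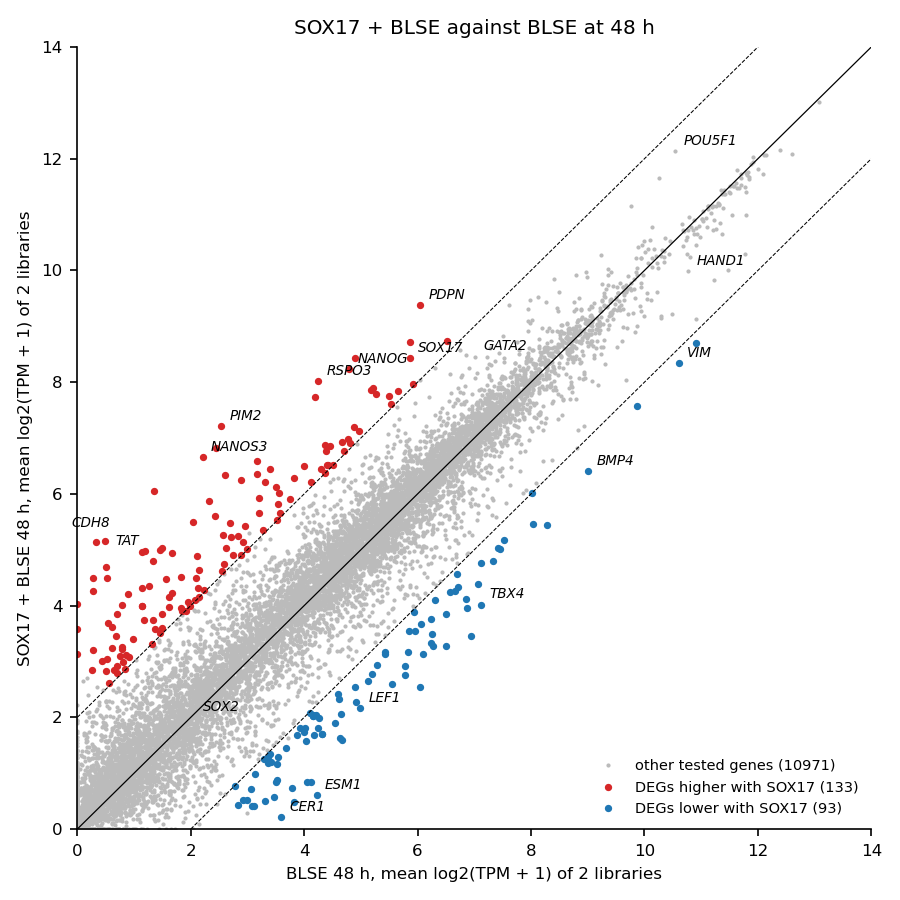
Mean log2(TPM + 1) of the 2 BLSE libraries (x axis) against that of the 2 SOX17 + BLSE libraries (y axis) at 48 h, each point a tested gene, with the line of equality solid and 4-fold lines dashed. The 133 DEGs higher with SOX17 lie mostly at low BLSE levels, and the 93 lower DEGs include abundant genes such as VIM and BMP4.

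SOX17 RNA is given first, which does not show whether the SOX17-GR protein was active. SOX17 stood at 57.6 and 57.1 TPM in the BLSE libraries and at 368 and 322 TPM in the SOX17 + BLSE libraries, with a log2 difference 2.56 ± 0.29, adjusted p = 1.11e-08. These reads could come from the transgene or from the marmoset gene. In the starting cjESCs, which had been sorted for TRA-1-60 and carry the same transgenes, SOX17 stood at 27.6 and 36.2 TPM. PRDM1, the repressor that shuts off somatic genes in PGCs, rose from 19.1 and 14 to 73.4 and 72.3 TPM (log2 difference 2.09 ± 0.21, adjusted p = 1.07e-09). TFAP2C, an AP-2 factor that works beside it, rose from 249.6 and 255 to 525 and 539.8 TPM (log2 difference 1.07 ± 0.18, adjusted p = 2.34e-05). Both also exist as transgenes in this line. Per the study's methods these are induced with doxycycline and Shield-1, and neither is added where SOX17 alone is enforced. NR3C1, which encodes the glucocorticoid receptor, was listed too low to be tested, at 0.16 and 0.40 TPM in BLSE and 0.12 and 0.23 TPM in SOX17 + BLSE. Such values do not show that the receptor was absent. FN1 (fibronectin), on the mesenchymal list below, was listed at 0 in all 4 libraries. Whether values near 0 reflect expression or the quantification was not tested.

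Among the 15 named DEGs with the largest increase were genes of cell adhesion, the cytoskeleton, signalling and RNA control. CDH8, a type II cadherin, was at 0.59 and 0 TPM in BLSE and at 33.7 and 35.2 TPM in SOX17 + BLSE. NANOS3, an RNA-binding protein that keeps PGCs alive, went from 3.82 and 3.44 to 106 and 94.6 TPM. SCIN, an actin-severing protein of the gelsolin family, was at 4.64 and 4.3 TPM without SOX17 and at 101 and 124 TPM with it. In all 3 genes the libraries of the groups lay far apart, with adjusted p values of 4.54e-16, 3.53e-14 and 2.86e-11. SNCB, which encodes beta-synuclein, rose from 0 and 0.47 to 19.9 and 23.3 TPM. MYL3, a myosin light chain of heart and slow muscle, was at 0.43 and 2.65 TPM without SOX17 and at 31.1 and 30.1 TPM with it. MSC, a basic helix-loop-helix repressor, moved from 0.19 and 0.23 to 17.1 and 19.3 TPM, and GPR155 from 0.57 and 0.33 to 21.5 and 21.5 TPM. TCEAL5, a member of a transcription elongation factor-like family, had 1.16 and 2.04 TPM in BLSE and 59.5 and 71.4 TPM in SOX17 + BLSE. FXYD4, a regulator of the sodium pump, was listed at 0 in both BLSE libraries and stood at 18.3 and 13 TPM with SOX17, so no fold is given. All 15 DEGs stayed past the threshold in each fit that left out 1 of the 4 libraries. When the spread came from the 4 libraries alone, FOXA2 and MYL3 did not.

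**Figure D2:**
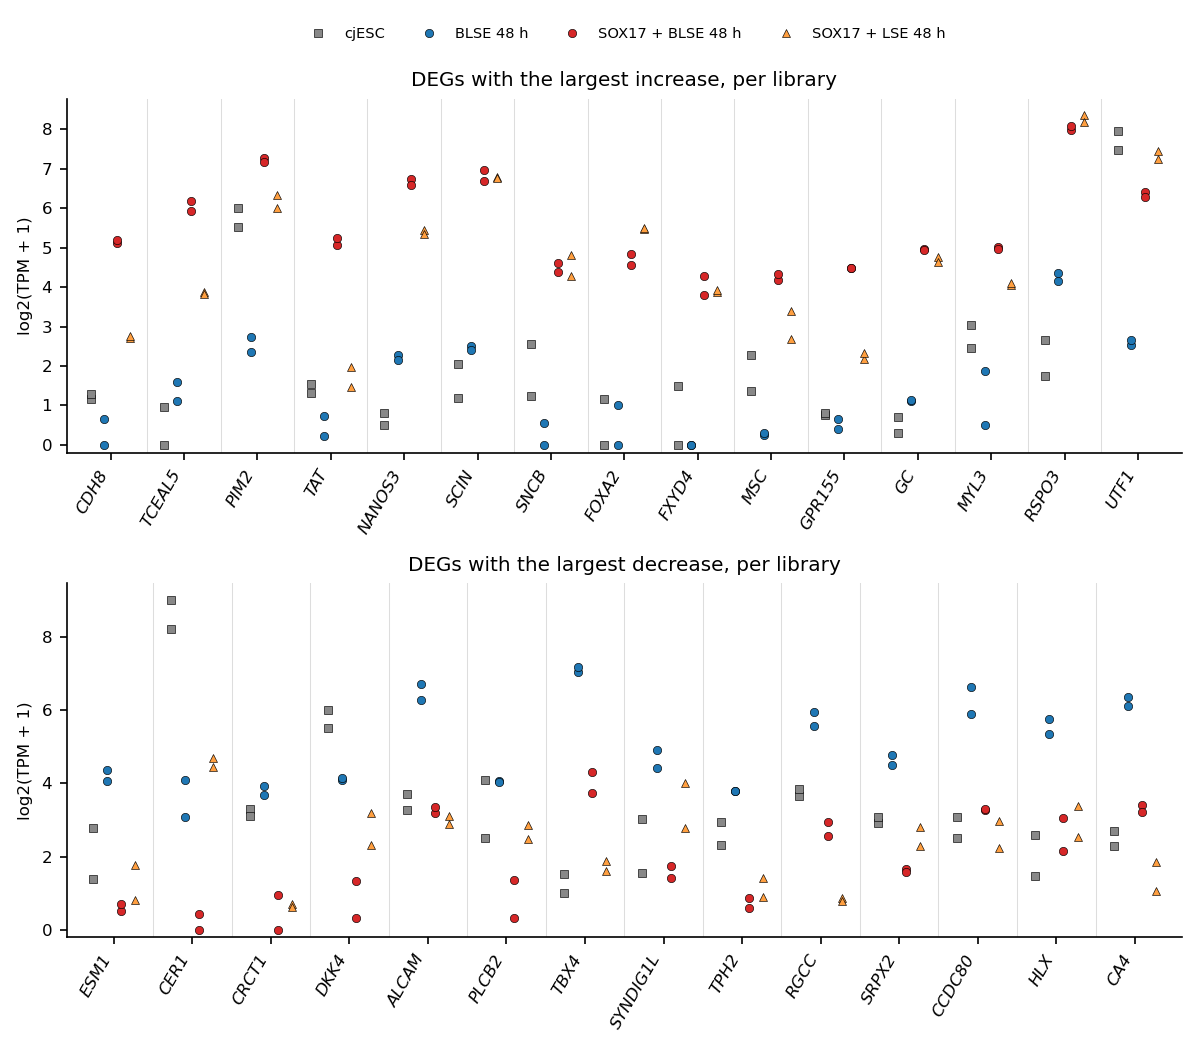
log2(TPM + 1) per library for the 15 named DEGs with the largest increase (upper panel) and 14 of the 15 with the largest decrease (lower panel) in cjESCs, BLSE at 48 h, SOX17 + BLSE at 48 h and SOX17 + LSE (without BMP4) at 48 h, 2 libraries each. CDH8, TAT and GPR155 sit lower in SOX17 + LSE than in SOX17 + BLSE, whereas SCIN, SNCB, GC and RSPO3 sit at similar heights in both.

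The 15 named DEGs with the largest decrease held secreted proteins, adhesion proteins and developmental regulators. ESM1, a proteoglycan secreted by endothelial cells, was at 15.9 and 19.6 TPM in BLSE and at 0.42 and 0.65 TPM in SOX17 + BLSE (log2 difference -3.61 ± 0.42, adjusted p = 2.25e-08). ALCAM, an adhesion molecule of the immunoglobulin family, went from 76.5 and 104 to 8.11 and 9.21 TPM. CCDC80, a matrix protein, went from 59 and 97.5 to 8.68 and 8.78 TPM. TBX4, a T-box factor of hindlimb and allantois, went from 132 and 144 to 18.9 and 12.2 TPM (log2 difference -3.09 ± 0.35, adjusted p = 1.75e-08). HLX, a homeobox gene of visceral mesenchyme, was at 40.1 and 53 TPM without SOX17 and at 7.26 and 3.45 TPM with it. CA4, a membrane-bound carbonic anhydrase, fell from 68.2 and 81.8 to 9.7 and 8.4 TPM. RGCC, a cell cycle regulator, fell from 46.9 and 61.2 to 4.87 and 6.72 TPM, and TPH2, an enzyme of serotonin synthesis, from 13 and 12.8 to 0.82 and 0.51 TPM. SRPX2, a secreted sushi-repeat protein, was at 21.7 and 26.2 TPM in BLSE against 2.2 and 1.97 TPM, PLCB2 at 15.8 and 15.3 against 1.57 and 0.25 TPM, SYNDIG1L at 29 and 20.5 against 2.36 and 1.69 TPM and CRCT1 at 12 and 14.4 against 0.95 and 0 TPM. CER1, a secreted antagonist of NODAL, BMP and WNT, stood at 16.2 and 7.48 TPM in BLSE and at 0.35 and 0 TPM in SOX17 + BLSE (log2 difference -3.38 ± 0.93, adjusted p = 0.00617). It was far higher in cjESCs, at 297 and 515 TPM. Its call was lost with any 1 of the 4 libraries left out (adjusted p = 0.0165 to 0.0797). The others described here kept their calls in every fit without 1 of the 4 libraries. When the spread came from the 4 libraries alone, CER1, CRCT1, DKK4, PLCB2, SYNDIG1L, CCDC80 and HLX did not pass.

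TAT encodes tyrosine aminotransferase, a liver enzyme long used as a readout of glucocorticoid action, and dexamethasone was given to 1 of the groups only. It was at 0.18 and 0.65 TPM in BLSE and at 32.4 and 37 TPM in SOX17 + BLSE (log2 difference 4.67 ± 0.38, adjusted p = 5.91e-12). In cells that also got SOX17-GR activation, but no BMP4 (SOX17 + LSE), TAT was at 1.79 and 2.95 TPM at 48 h. In sorted tdTomato-positive cells at 96 h it was at 112 and 120 TPM in SOX17 + LSE and 104 and 178 TPM in SOX17 + BLSE. In unsorted BLSE cells of 96 h TAT was at 0.2 and 0 TPM. At 12 h it had been at 0.85 and 0.80 TPM in BLSE and 2.42 and 5.19 TPM in SOX17 + BLSE. A further condition, BLSE + IWR1, used reporter cells labelled wild type, with no SOX17-GR transgene. Per the study's methods these were pre-treated with IM12, which activates WNT signalling, and activin A before aggregation, and then given the WNT inhibitor IWR1 beside BLSE. In them TAT was at 1.31 and 1.11 TPM at 48 h in unsorted cells and at 49.5 and 49.5 TPM at 96 h in sorted tdTomato-positive cells. Of 12 tested targets of the glucocorticoid receptor on a list of 16, 5 rose and 1 fell (50% called, against 16.7% of all genes), with a median difference of 0.32 against 0.0995 over all genes. Of the 6 calls, 3 held in every fit without 1 library, and 2 genes fell under median-ratio scaling. NFKBIA, the inhibitor of NF-kB, rose from 36.3 and 33.4 to 101 and 103 TPM and was at 35.9 and 48.3 TPM in SOX17 + LSE. GLUL, glutamine synthetase, rose from 178 and 167 to 339.8 and 395 TPM and was at 119.7 and 108 TPM in SOX17 + LSE. FKBP5, a chaperone that feeds back on the receptor, fell from 114 and 107 to 64.4 and 65.1 TPM (log2 difference -0.76 ± 0.17, adjusted p = 0.000996). The call did not hold without SOX17 + BLSE replicate 1 or SOX17 + BLSE replicate 2 or BLSE replicate 1 (adjusted p = 0.011 to 0.0162). KLF9, a Krüppel-like factor, rose from 0.64 and 1.76 to 3.42 and 3.86 TPM. It missed the threshold without SOX17 + BLSE replicate 2 or BLSE replicate 1 (adjusted p = 0.0169 to 0.0742). CEBPD, a C/EBP factor, rose from 7.27 and 4.12 to 26.1 and 22.2 TPM. It did not pass without SOX17 + BLSE replicate 1 or SOX17 + BLSE replicate 2 or BLSE replicate 2 (adjusted p = 0.0164 to 0.0669). TSC22D3 (log2 difference 0.55 ± 0.30), DUSP1 (log2 difference -0.46 ± 0.26) and SGK1 (log2 difference 0.09 ± 0.31), 3 other usual readouts of the receptor, did not pass.

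Germ cell genes formed the list with the largest share of increases among the lists examined. Of 20 genes that specify or mark early PGCs, 18 were tested. Of these 13 rose, 1 fell and 4 did not pass (77.8% called, against 16.7% of all genes). Their median difference was 2.08, and 10 of them were DEGs. SOX17 itself, whose reads could come from the transgene, is on the list. The lists share members: KLF4 and TFCP2L1 are counted here and again among the naive-state genes. The list was drawn up with results of these data known, so its direction is a description. PDPN, a membrane glycoprotein used to sort PGC-like cells, rose from 70.4 and 59.7 to 648 and 685 TPM (log2 difference 3.34 ± 0.13, adjusted p = 2.95e-20). DND1, an RNA-binding partner of NANOS proteins, rose from 47 and 26.2 to 231 and 234 TPM (log2 difference 2.69 ± 0.25, adjusted p = 2.34e-10). SOX15, an SRY-box factor of early germ cells, rose from 5.67 and 4.11 to 23 and 24.1 TPM (log2 difference 2.07 ± 0.26, adjusted p = 9.85e-08). KIT, the receptor for SCF, was listed at 0.36 and 0.09 TPM in BLSE and 1.01 and 1.44 TPM in SOX17 + BLSE (log2 difference 0.86 ± 0.21, adjusted p = 0.00156). That call was gone without SOX17 + BLSE replicate 2 or BLSE replicate 2 (adjusted p = 0.0437 to 0.0513). ITGB3, an integrin subunit, was the member that fell, from 48.7 and 70.2 to 23.3 and 25.5 TPM (log2 difference -1.23 ± 0.22, adjusted p = 5.21e-05). DPPA3 (26.9 and 14.8 TPM without and 25.5 and 30.4 TPM with SOX17) and LAMA4 (3.95 and 5.7 TPM without and 4.64 and 4.52 TPM with SOX17) did not pass, nor did ALPL and ARID5B, and CXCR4 and CD38 were not tested. Median-ratio scaling and quantile normalization left the counts at 13 and 1.

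Genes of later germ cells were near the bottom of the range. Of 10 tested among 14, 1 rose and none fell (10% called, against 16.7% of all genes). DMRT1, a regulator of sex and germ cell fate, was listed at 0 in both BLSE libraries and stood at 1.71 and 4.1 TPM in SOX17 + BLSE (adjusted p = 1.29e-07 by limma). DAZL, which opens gametogenic competence, was at 0.50 and 0 TPM without and 1.3 and 0.62 TPM with SOX17, DDX4 (VASA) at 0.40 and 0 TPM without and 0.29 and 0 TPM with SOX17 and PIWIL2 at 0 and 0 TPM without and 0.07 and 0 TPM with SOX17, and SYCP3, a meiotic gene that was not tested, was listed at 0 in all 4 libraries.

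Of 12 tested genes shared by pluripotent states, 6 rose, 1 fell and 5 did not pass (58.3% called, against 16.7% of all genes). Under median-ratio scaling 5 rose and 1 fell. Their median difference was 0.77, and 5 of the 7 calls held in every fit without 1 library. NANOG was at 743 and 514 TPM in cjESCs, at 31.5 and 22.6 TPM in BLSE and at 270.2 and 331 TPM in SOX17 + BLSE (log2 difference 3.44 ± 0.17, adjusted p = 1.88e-17). UTF1, a chromatin factor of pluripotent and germ cells, was at 247 and 177 TPM in cjESCs, 4.83 and 5.31 TPM in BLSE and 83.2 and 77.1 TPM in SOX17 + BLSE (log2 difference 3.74 ± 0.19, adjusted p = 1.78e-17). In both genes the SOX17 + BLSE libraries lay between the cjESC and the BLSE libraries. POU5F1 (OCT4), the factor common to pluripotent and germ cells, was at 3082 and 2868 TPM in cjESCs, 1608 and 1376 TPM in BLSE and 4314 and 4678 TPM in SOX17 + BLSE (log2 difference 1.59 ± 0.10, adjusted p = 3.79e-15), so its SOX17 + BLSE libraries lay above both. PRDM14 rose from 2.15 and 2.04 to 9.92 and 8.26 TPM (log2 difference 1.70 ± 0.24, adjusted p = 9.15e-07), far under the 202 and 130.0 TPM of cjESCs, and TDGF1 (CRIPTO), the NODAL co-receptor, rose from 103 and 128 to 328 and 388 TPM. SOX2, which primate PGCs keep off, was at 191 and 200.4 TPM in cjESCs, at 2.44 and 4.08 TPM in BLSE and at 2.66 and 3.36 TPM in SOX17 + BLSE (log2 difference -0.07 ± 0.28, adjusted p = 0.909 by limma). LIN28A, a blocker of let-7 microRNAs, fell from 865 and 906 to 624 and 577 TPM. It was not called without SOX17 + BLSE replicate 2 or BLSE replicate 2 (adjusted p = 0.0227 to 0.028). SALL4, LIN28B, DPPA4 and TRIM71 did not pass.

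Of 11 tested genes of the naive state, 6 rose and none fell (54.5% called, against 10.3% higher and 6.37% lower over all genes), with a median difference of 1.33. Under median-ratio scaling or quantile normalization 5 rose, and 4 of the 6 calls held in every fit without 1 library. KLF4 was at 9.35 and 9.75 TPM in BLSE and at 84.7 and 87.5 TPM in SOX17 + BLSE (log2 difference 3.05 ± 0.20, adjusted p = 1.83e-14). KLF5 was at 26.7 and 27.4 TPM and rose to 121 and 119.7 TPM (log2 difference 2.11 ± 0.17, adjusted p = 7.16e-12). TFCP2L1 rose from 1.74 and 2.72 to 15.3 and 20.5 TPM (log2 difference 2.55 ± 0.39, adjusted p = 4.36e-06). These 3, of which KLF4 and TFCP2L1 are also on the germ cell list, are transcription factors of the naive network. DPPA5 rose from 81.6 and 74.3 to 276 and 337 TPM. ESRRB, a nuclear receptor of that network, rose from 0.56 and 0.28 to 4.01 and 1.61 TPM. The threshold was missed without SOX17 + BLSE replicate 1 or BLSE replicate 2 (adjusted p = 0.0238 to 0.0832). DNMT3L, the sixth, is described with DNA methylation. KLF17, a naive-state factor of the primate embryo, was at 4.49 and 3.79 TPM without and 3.96 and 5.83 TPM with SOX17 and did not pass. Of 10 tested primed-state genes none rose and 3 fell (30% called, against 16.7% of all genes). Their median difference was nevertheless 0.43, above the 0.0995 over all genes. None of the 3 calls (DUSP6, SFRP2 and CD24) held in every fit without 1 library.

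PIM2 encodes a serine/threonine kinase that is a target of STAT signalling and promotes survival. It was at 62.6 and 45.2 TPM in cjESCs, at 5.66 and 4.08 TPM in BLSE and at 153 and 143 TPM in SOX17 + BLSE (log2 difference 4.68 ± 0.21, adjusted p = 8.14e-19). Of the other PIM kinases, PIM3 was at 47 and 47.7 TPM without and 70.6 and 70.6 TPM with SOX17 and PIM1 at 118 and 125 TPM without and 91.7 and 101 TPM with SOX17. PIM3 passed (adjusted p = 0.00463). Its call was lost with any 1 of the 4 libraries left out (adjusted p = 0.0313 to 0.0344), and PIM1 did not pass (adjusted p = 0.151, by limma). Of 18 tested genes of the LIF and STAT3 pathway, 7 rose, 1 fell and 10 did not pass (44.4% called, against 16.7% of all genes). Their median difference was 0.48, and 5 rose under median-ratio scaling. Of the 8 calls, 5 held in every fit without 1 library. OSMR, a receptor of the family, rose from 2.74 and 3.04 to 9.38 and 9.16 TPM, while the receptors LIFR (43.7 and 50.1 TPM without and 31.6 and 28.8 TPM with SOX17) and IL6ST (0.87 and 0.66 TPM without and 1.64 and 1.44 TPM with SOX17) and STAT3 itself (5.39 and 5.86 TPM without and 7.5 and 8.04 TPM with SOX17) did not pass. SOCS1, a feedback inhibitor, rose from 15.4 and 23.7 to 50.8 and 46.4 TPM. The call did not hold without SOX17 + BLSE replicate 1 or SOX17 + BLSE replicate 2 or BLSE replicate 1 (adjusted p = 0.0241 to 0.095). MYC was the member that fell, from 249 and 269.6 to 142 and 134 TPM (log2 difference -0.91 ± 0.14, adjusted p = 7.44e-06).

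Of 12 tested mesenchymal genes among 16, 6 fell, 2 rose and 4 did not pass (66.7% called, against 16.7% of all genes). Their median difference was -0.68, and 5 of the 8 calls held in every fit without 1 library. VIM, the intermediate filament of mesenchymal cells, was at 375 and 729 TPM in cjESCs, 1492 and 1633 TPM in BLSE and 363 and 290.0 TPM in SOX17 + BLSE (log2 difference -2.26 ± 0.19, adjusted p = 1.25e-11). SNAI1, a repressor of epithelial genes, fell from 64.8 and 74.8 to 29.9 and 27.3 TPM (log2 difference -1.26 ± 0.20, adjusted p = 5.82e-06). SNAI2, its relative, fell from 37.9 and 34.1 to 15 and 9.02 TPM (log2 difference -1.55 ± 0.31, adjusted p = 0.00024). It missed the threshold without SOX17 + BLSE replicate 2 (adjusted p = 0.022). MMP2, a matrix protease, fell from 939 and 1104 to 632 and 533 TPM. CDH2 (N-cadherin) went the other way, from 3.78 and 4.29 to 51.5 and 64 TPM (log2 difference 3.54 ± 0.19, adjusted p = 2.79e-16), and was at 74.3 and 53.9 TPM in SOX17 + LSE. S100A4 also rose, from 0 and 6.63 to 24.3 and 39 TPM (log2 difference 3.52 ± 0.63, adjusted p = 4.51e-05). It did not pass without BLSE replicate 1 (adjusted p = 0.0237). CDH2 is also known from germ cells and neural cells.

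The cadherin family split. Of 15 tested classical and type II cadherins, 3 rose (CDH8, CDH2 and CDH10) and 3 fell (CDH11, CDH6 and CDH22). That was 40% in all, against 16.7% of all genes, and 5 of the 6 calls held in every fit without 1 library. CDH10 rose from 4.54 and 5.48 to 20.6 and 25.2 TPM (log2 difference 1.99 ± 0.41, adjusted p = 0.000287). CDH11, a mesenchymal cadherin, fell from 16.9 and 18.1 to 4.44 and 3.28 TPM (log2 difference -1.94 ± 0.36, adjusted p = 6.92e-05), and CDH22 fell from 3.54 and 3.15 to 0.32 and 0.61 TPM. CDH6 fell from 43.6 and 74.5 to 18.5 and 20.8 TPM. That call was gone without BLSE replicate 2 (adjusted p = 0.0214). CDH1 (E-cadherin), which holds epithelial cells together, was at 93 and 85.6 TPM without and 100.4 and 132 TPM with SOX17 and did not pass (adjusted p = 0.16 by limma). Of 16 tested epithelial genes, 7 rose, 2 fell and 7 did not pass (56.2% called, against 16.7% of all genes). Their median difference was 0.78, and 8 of the 9 calls held in every fit without 1 library. The 7 that rose were genes of tight junctions and epithelial regulators: OCLN (8.39 and 8.24 to 34.5 and 36.6 TPM), TJP3 (4.74 and 2.41 to 15.4 and 18.2 TPM), CLDN6, CLDN7, MARVELD3, GRHL1 and ESRP2. Keratin 19 (KRT19), a filament of simple epithelia, fell from 2957 and 2739 to 1167 and 911 TPM (log2 difference -1.46 ± 0.20, adjusted p = 4.53e-07), and EPCAM (673 and 577 TPM without and 691 and 802 TPM with SOX17) did not pass.

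Genes of the primitive streak and mesoderm fell more often than they rose. Of 23 tested among 28, 8 fell, 2 rose and 13 did not pass (43.5% called, against 16.7% of all genes). Their median difference was -0.68, and 8 of the 10 calls held in every fit without 1 library. FOXF1, a forkhead factor of lateral and extraembryonic mesoderm, fell from 110.3 and 118 to 20.3 and 13 TPM (log2 difference -2.74 ± 0.32, adjusted p = 2.37e-08). Its relative FOXF2 fell from 59.7 and 59.6 to 16.4 and 13.5 TPM (log2 difference -1.93 ± 0.36, adjusted p = 8.57e-05). TCF21, a factor of visceral mesenchyme, fell from 5.69 and 10.4 to 0.33 and 0.32 TPM. BMP4, itself a product of extraembryonic mesoderm and amnion, was at 119 and 205 TPM in cjESCs, 478 and 548 TPM in BLSE and 85.2 and 83 TPM in SOX17 + BLSE (log2 difference -2.59 ± 0.19, adjusted p = 4.09e-13); the protein was also in the medium of both groups. APLNR, the apelin receptor, fell from 262 and 256 to 84.6 and 48.4 TPM. TBXT (brachyury), the notochord and streak factor, rose instead, from 48 and 42.4 to 179 and 213 TPM (log2 difference 2.09 ± 0.36, adjusted p = 2.22e-05), and stood at 435 and 404 TPM in cjESCs and 570.2 and 659 TPM in SOX17 + LSE. PDGFRA, a receptor of mesoderm and primitive endoderm, also rose, from 23.6 and 25.2 to 112 and 129 TPM (log2 difference 2.26 ± 0.40, adjusted p = 3.53e-05). MIXL1, an early streak gene, was at 36 and 40.0 TPM in BLSE and at 4.36 and 10.0 TPM in SOX17 + BLSE (log2 difference -2.34 ± 0.67, adjusted p = 0.00851). It was not called with any 1 of the 4 libraries left out (adjusted p = 0.013 to 0.132). TBX2 fell from 12.1 and 16.6 to 8.14 and 4.55 TPM. The threshold was missed without SOX17 + BLSE replicate 2 or BLSE replicate 2 (adjusted p = 0.0806 to 0.141). HAND1 (1770 and 1729 TPM without and 1048 and 991 TPM with SOX17) and EOMES (4.28 and 5.37 TPM without and 3.22 and 5.41 TPM with SOX17) did not pass.

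None of the 17 tested vascular and blood genes rose, and 9 fell (52.9% called, against 16.7% of all genes). Their median difference was -1.18, and 6 of the 9 calls held in every fit without 1 library. Besides ESM1, the DEGs were ANGPT2, an antagonist of TIE2, from 46.5 and 61.9 to 5.94 and 7.25 TPM (log2 difference -2.85 ± 0.33, adjusted p = 2.65e-08), SOX7 and APLNR. SOX7, which belongs to the same SOX subfamily as SOX17, fell from 18 and 13.1 to 1.85 and 2.13 TPM (log2 difference -2.45 ± 0.26, adjusted p = 3.96e-09). FLT1, a VEGF receptor, fell from 301 and 359 to 91.5 and 101 TPM, and TEK (TIE2), the angiopoietin receptor, from 4.06 and 4.18 to 0.70 and 0.75 TPM. LMO2, a blood and vessel regulator, fell from 15.9 and 20.1 to 5.62 and 7.26 TPM. Its call was lost without SOX17 + BLSE replicate 1 or BLSE replicate 2 (adjusted p = 0.0124 to 0.0138). PLVAP fell from 8.46 and 7.18 to 2.72 and 2.47 TPM. The call did not hold with any 1 of the 4 libraries left out (adjusted p = 0.0214 to 0.0486). VWF, von Willebrand factor, fell from 4.46 and 4.77 to 1.73 and 1.25 TPM. It missed the threshold with any 1 of the 4 libraries left out (adjusted p = 0.0252 to 0.0891). SOX18, the third gene of that subfamily, was at 0.43 and 0.20 TPM without and 0.35 and 0.62 TPM with SOX17, KDR at 20.1 and 24.2 TPM without and 18.7 and 18.2 TPM with SOX17 and CDH5 at 7.17 and 5.84 TPM without and 8.11 and 7.61 TPM with SOX17, and these did not pass.

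HOX genes, which pattern the body axis and are switched on along the primitive streak and its products, were largely lower. Of 30 HOX genes listed, 26 were tested: 14 fell, 1 rose and 11 did not pass (57.7% called, against 16.7% of all genes). The median difference was -1.15. The summed level of all 30 was 42.6 and 62.2 TPM in cjESCs, 555 and 596 TPM in BLSE and 182 and 136 TPM in SOX17 + BLSE. HOXB6 fell from 76.6 and 72.7 to 19.4 and 7.98 TPM (log2 difference -2.48 ± 0.29, adjusted p = 2.89e-08). HOXC11 fell from 15 and 23.5 to 2.73 and 1.85 TPM (log2 difference -2.60 ± 0.25, adjusted p = 3.55e-10). HOXA10 (85 and 102 to 36.4 and 28.6 TPM), HOXA11 (79.9 and 90.6 to 27.8 and 19.7 TPM) and HOXA13 (78.4 and 80.3 to 23.2 and 16.5 TPM) fell but stayed above cjESCs, where they were at 1.99 and 3.2, 1.92 and 2.18 and 1.14 and 1.85 TPM. HOXC13 rose from 1.91 and 1.57 to 4.68 and 8.27 TPM. It did not pass without SOX17 + BLSE replicate 2 or BLSE replicate 2 (adjusted p = 0.0144 to 0.0443). Of the 15 calls, 11 held in every fit without 1 library.

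**Figure D3:**
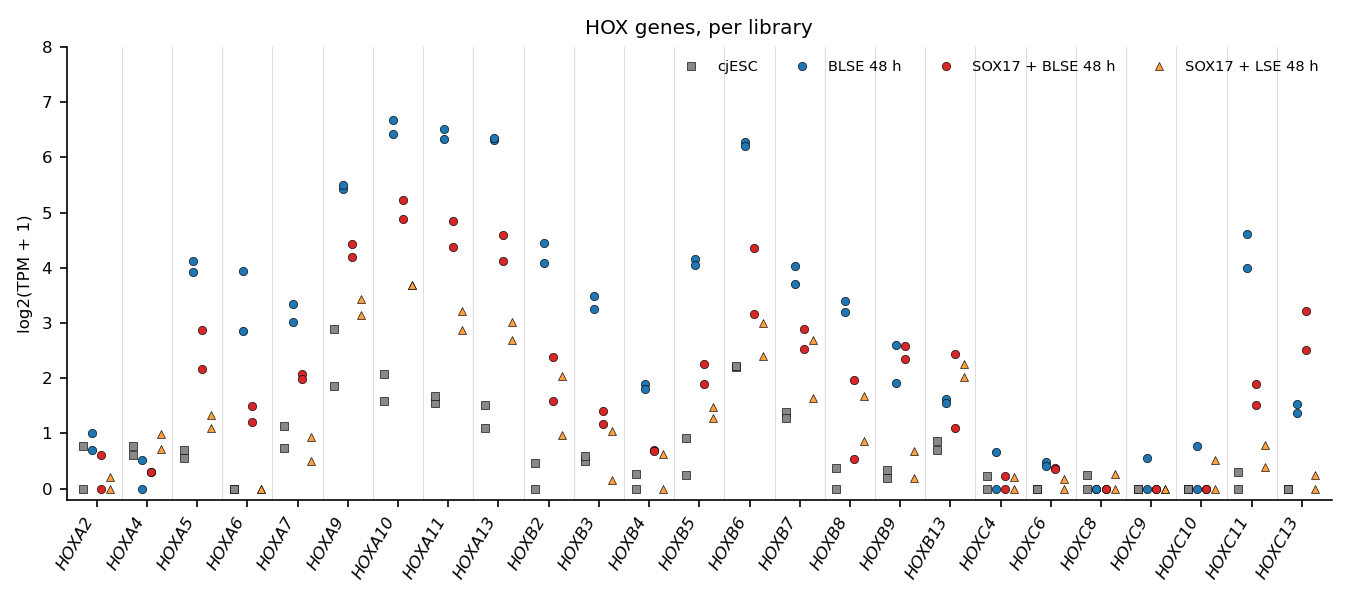
log2(TPM + 1) of tested HOX genes per library in cjESCs, BLSE at 48 h, SOX17 + BLSE at 48 h and SOX17 + LSE at 48 h. The BLSE libraries are the highest for most HOXA and HOXB genes, and HOXC13 is the 1 gene that rose with SOX17.

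Retinoic acid drives HOX expression in many tissues. The genes that make, carry and sense it gave 3 decreases and 1 increase among 12 tested (33.3% called, against 16.7% of all genes). Their median difference was -0.41, and 2 of the 4 calls held in every fit without 1 library. CRABP2, a carrier that takes retinoic acid to its receptors, fell from 1771 and 2061 to 579 and 543 TPM (log2 difference -1.77 ± 0.36, adjusted p = 0.000258). RARB, a receptor and a direct target, fell from 4.6 and 4.74 to 1.35 and 0.60 TPM. That call was gone without SOX17 + BLSE replicate 2 (adjusted p = 0.0188). ALDH1A3, an enzyme that makes retinoic acid, rose from 7.61 and 10.3 to 28.2 and 34.9 TPM (log2 difference 1.71 ± 0.31, adjusted p = 5.43e-05). CYP26A1, which degrades it, was at 329 and 379.6 TPM without and 168 and 152 TPM with SOX17 and did not pass (adjusted p = 0.028 by limma).

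The WNT pathway moved in both directions. Of 26 tested ligands, receptors, inhibitors and targets, 5 rose, 6 fell and 15 did not pass (42.3% called, against 16.7% of all genes). Their median difference was -0.07, and 9 of the 11 calls held in every fit without 1 library. On the side of amplifiers, RSPO3, a secreted R-spondin, rose from 16.7 and 19.3 to 249.8 and 268 TPM (log2 difference 3.78 ± 0.37, adjusted p = 7.43e-10). LGR5, an R-spondin receptor, rose from 0.41 and 0.88 to 6.07 and 5.74 TPM (log2 difference 2.08 ± 0.27, adjusted p = 2.24e-07). FZD10, a frizzled receptor, rose from 16.2 and 13.6 to 48.3 and 58.1 TPM. The secreted or intracellular inhibitors NOTUM (15.1 and 17.9 to 56.4 and 53.7 TPM) and NKD1 (2.76 and 3.04 to 9.98 and 8.06 TPM) also rose, whereas the secreted inhibitors DKK4 (16 and 16.7 to 0.26 and 1.54 TPM) and SFRP1 (91.6 and 101 to 29.9 and 25.2 TPM) fell. LEF1, a nuclear partner of beta-catenin, was at 4.19 and 4.29 TPM in cjESCs, 25.7 and 37 TPM in BLSE and 4 and 3.02 TPM in SOX17 + BLSE (log2 difference -2.83 ± 0.28, adjusted p = 9.02e-10), so of these 3 groups the BLSE libraries alone were high. TCF7L1 fell from 48.6 and 48.3 to 24.4 and 29.1 TPM, and TCF7 (3.8 and 5.37 TPM without and 4.05 and 4.99 TPM with SOX17) did not pass. Of the ligands, WNT3 was at 41.5 and 41.3 TPM without and 23.5 and 23.3 TPM with SOX17 and WNT3A at 32.8 and 48.7 TPM without and 70.2 and 76.9 TPM with SOX17, and neither passed. The common feedback target AXIN2 was at 5.78 and 4.2 TPM without and 6.68 and 9.92 TPM with SOX17 (adjusted p = 0.129 by limma), and SP5 at 11.7 and 8.69 TPM without and 10.3 and 10.7 TPM with SOX17 (adjusted p = 0.968 by limma).

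In the NODAL pathway, 3 of 12 tested genes rose and 1 fell (33.3% called, against 10.3% higher and 6.37% lower over all genes), and 3 of the 4 calls held in every fit without 1 library. FST, follistatin, which traps activin, rose from 21.1 and 14 to 196 and 230.5 TPM (log2 difference 3.55 ± 0.32, adjusted p = 8.18e-11), and GDF3 rose from 323 and 265 to 499 and 502 TPM. NODAL was at 390.4 and 438 TPM in cjESCs, 26.8 and 29.3 TPM in BLSE and 11.7 and 19.6 TPM in SOX17 + BLSE and did not pass. Of 20 tested FGF ligands and ERK feedback genes 4 rose and 4 fell (40% called), and 4 of the 8 calls held in every fit without 1 library. The feedback inhibitors SPRY4 (235 and 312 to 72.2 and 72.2 TPM, log2 difference -1.89 ± 0.26, adjusted p = 6.31e-07) and SPRED1 (22.2 and 25.3 to 10.6 and 10.5 TPM) fell, and the receptor FGFR4 (28.4 and 25.7 to 66 and 70.6 TPM) and the ligand FGF10 (0.54 and 0.28 to 2.17 and 3.34 TPM) rose. SPRY1, a feedback inhibitor that rose, went from 9.13 and 3.78 to 13.8 and 18.1 TPM. It was not called without SOX17 + BLSE replicate 2 or BLSE replicate 2 (adjusted p = 0.0448 to 0.171). FGFR3, a receptor, rose from 1.39 and 1.62 to 4.76 and 5.55 TPM. The threshold was missed without SOX17 + BLSE replicate 2 or BLSE replicate 1 (adjusted p = 0.0152 to 0.0193). SPRED2 fell from 63.7 and 71 to 38.2 and 40.0 TPM. Its call was lost with any 1 of the 4 libraries left out (adjusted p = 0.0126 to 0.0502). DUSP6, an ERK phosphatase, fell from 146 and 176 to 60.2 and 56.1 TPM. The call did not hold without SOX17 + BLSE replicate 1 or SOX17 + BLSE replicate 2 or BLSE replicate 2 (adjusted p = 0.0118 to 0.0301).

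Endoderm genes did not move as 1 block. Of 15 tested, 4 rose, 2 fell and 9 did not pass (40% called, against 16.7% of all genes). Their median difference was 0.23, and 4 of the 6 calls held in every fit without 1 library. FOXA2, the forkhead factor of definitive endoderm and node, rose from 0 and 1.02 to 27.4 and 22.6 TPM (log2 difference 4.19 ± 0.42, adjusted p = 1.1e-09). HNF4A, a nuclear receptor of gut and liver, rose from 1.49 and 1.56 to 26.1 and 27.9 TPM (log2 difference 3.47 ± 0.34, adjusted p = 7.68e-10). APOA1, an apolipoprotein of liver, gut and yolk sac, rose from 23.4 and 35.2 to 305 and 392 TPM (log2 difference 3.55 ± 0.42, adjusted p = 3.71e-08). GC, the vitamin D-binding protein, which is not on the list, rose from 1.18 and 1.21 to 30.4 and 29.8 TPM (log2 difference 3.82 ± 0.47, adjusted p = 6.06e-08). HHEX rose from 6.58 and 3.93 to 13 and 19.4 TPM. It missed the threshold without SOX17 + BLSE replicate 2 or BLSE replicate 2 (adjusted p = 0.0439 to 0.0518). Against these, CER1 and SOX7 fell, and GATA6 (148 and 144 TPM without and 92.1 and 84.3 TPM with SOX17) and FOXA1 (0 and 0 TPM without and 0.46 and 0.34 TPM with SOX17) did not pass. TTR, AFP and APOA2, secreted by liver and yolk sac, were listed at 0 in all 4 libraries. The summed level of the list was 226 and 220.4 TPM in BLSE and 482 and 572 TPM in SOX17 + BLSE. In SOX17 + LSE, FOXA2 was at 43.2 and 44.4 TPM, HNF4A at 35.4 and 31.2 TPM, APOA1 at 238 and 216 TPM and GC at 26 and 23.9 TPM. The part of endoderm-type cells in the other differences was not tested.

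BMP targets and amnion-type factors gave 7 increases and 2 decreases among 23 tested (39.1% called, against 16.7% of all genes). Their median difference was 0.44, and 3 of the 9 calls held in every fit without 1 library. DLX3, a homeobox factor of ectoderm and placenta, rose from 7.27 and 6.31 to 42.7 and 40.9 TPM (log2 difference 2.46 ± 0.40, adjusted p = 1.17e-05) and was at 2.87 and 2.76 TPM in SOX17 + LSE. TFAP2A, an AP-2 factor of amnion and ectoderm, rose from 15.9 and 13.1 to 44.2 and 43.2 TPM (log2 difference 1.54 ± 0.28, adjusted p = 5.71e-05) and was at 3.71 and 5 TPM in SOX17 + LSE. GATA2 rose from 127 and 128 to 347 and 354 TPM (log2 difference 1.45 ± 0.33, adjusted p = 0.00101). It did not pass with any 1 of the 4 libraries left out (adjusted p = 0.0104 to 0.0129). ID1, a direct BMP target, rose from 548 and 472 to 1004 and 882 TPM. That call was gone without SOX17 + BLSE replicate 1 or BLSE replicate 2 (adjusted p = 0.0109 to 0.0133). ID3, its relative, fell from 935 and 922 to 549 and 478 TPM. It was not called without SOX17 + BLSE replicate 2 (adjusted p = 0.011). ID4 rose from 26.2 and 24 to 49.9 and 46.4 TPM. The threshold was missed without SOX17 + BLSE replicate 1 or SOX17 + BLSE replicate 2 or BLSE replicate 2 (adjusted p = 0.0107 to 0.0262). MSX2, a homeobox target of BMP, rose from 173 and 139.9 to 313 and 318 TPM. Its call was lost without SOX17 + BLSE replicate 2 or BLSE replicate 2 (adjusted p = 0.0104 to 0.0282). The feedback genes SMAD6, SMAD7 and BAMBI and the amnion markers VTCN1 (13.7 and 13.5 TPM without and 11.7 and 7.47 TPM with SOX17), GABRP (2.4 and 1.53 TPM without and 0.41 and 0.80 TPM with SOX17) and ISL1 (28.3 and 32.1 TPM without and 19.2 and 17.6 TPM with SOX17) did not pass, and TBX3 was at 203 and 206 TPM without and 289.9 and 274 TPM with SOX17 (adjusted p = 0.265 by limma). Of 8 tested trophoblast genes 4 rose and 1 fell (62.5% called, against 16.7% of all genes). Only 1 of these 5 calls (TFAP2A) held in every fit without 1 library. VGLL1, a cofactor of TEAD proteins in trophoblast, was at 7.21 and 5.67 TPM without SOX17 and at 26.5 and 31.4 TPM with it (log2 difference 2.01 ± 0.44, adjusted p = 0.000563), and stood at 1.11 and 2.58 TPM in SOX17 + LSE. The call did not hold without SOX17 + BLSE replicate 2 or BLSE replicate 2 (adjusted p = 0.0124 to 0.0144).

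Of 19 tested cell cycle genes 3 rose (15.8% called, against 16.7% of all genes), and under median-ratio scaling 1 rose and 2 fell. None of the 3 held in every fit without 1 library, the weakest adjusted p by limma being for CCNB1 (adjusted p = 0.0763), for AURKB (adjusted p = 0.068) and for E2F1 (adjusted p = 0.0176). Of 16 immediate early and stress genes 1 rose and 2 fell (18.8% called), and 1 of the 3 calls held in every fit without 1 library, that of ATF3, a stress factor that went from 98.2 and 107 to 25.5 and 26.8 TPM (log2 difference -1.93 ± 0.38, adjusted p = 0.0002). Of 12 fibroblast genes 1 rose and 1 fell (16.7% called, the same share as over all genes), and neither call held in every fit without 1 library. Their summed level was 2554 and 2456 TPM in BLSE and 2206 and 2051 TPM in SOX17 + BLSE. Per the study's methods the feeders were mouse fibroblasts, and reads were aligned to the marmoset genome. How far mouse reads were counted is unknown, so the list cannot check for feeder cells. Of 20 matrix genes 6 fell and 1 rose (35% called), COL6A1 falling from 60.7 and 98.3 to 27.4 and 29.7 TPM (log2 difference -1.41 ± 0.20, adjusted p = 1.54e-06), the only 1 of these 7 calls that held in every fit without 1 library. Of 7 genes of DNA methylation 1 rose and 1 fell (28.6% called), and under median-ratio scaling none rose and 2 fell. UHRF1, which brings DNMT1 to replicating DNA, fell from 143 and 155 to 52.5 and 55.1 TPM (log2 difference -1.45 ± 0.15, adjusted p = 1.89e-09), and DNMT1 (101 and 109 TPM without and 85.8 and 87.6 TPM with SOX17) did not pass. DNMT3L rose from 7.89 and 7.39 to 23.4 and 18.2 TPM. It missed the threshold with any 1 of the 4 libraries left out (adjusted p = 0.0241 to 0.0911). Of 6 neural genes 2 rose and 2 fell (66.7% called), and 3 of the 4 calls held in every fit without 1 library. EN2 was listed at 0 in both BLSE libraries and stood at 5.25 and 11.3 TPM with SOX17, and DLL1, a Notch ligand, rose from 11.1 and 9.86 to 50.2 and 40.8 TPM. NES (nestin) fell from 464 and 520.0 to 154 and 140.1 TPM (log2 difference -1.73 ± 0.13, adjusted p = 7.17e-13). POU3F2 fell from 3.42 and 2.78 to 1.67 and 1.09 TPM. It did not pass with any 1 of the 4 libraries left out (adjusted p = 0.0144 to 0.146).

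**Figure D4:**
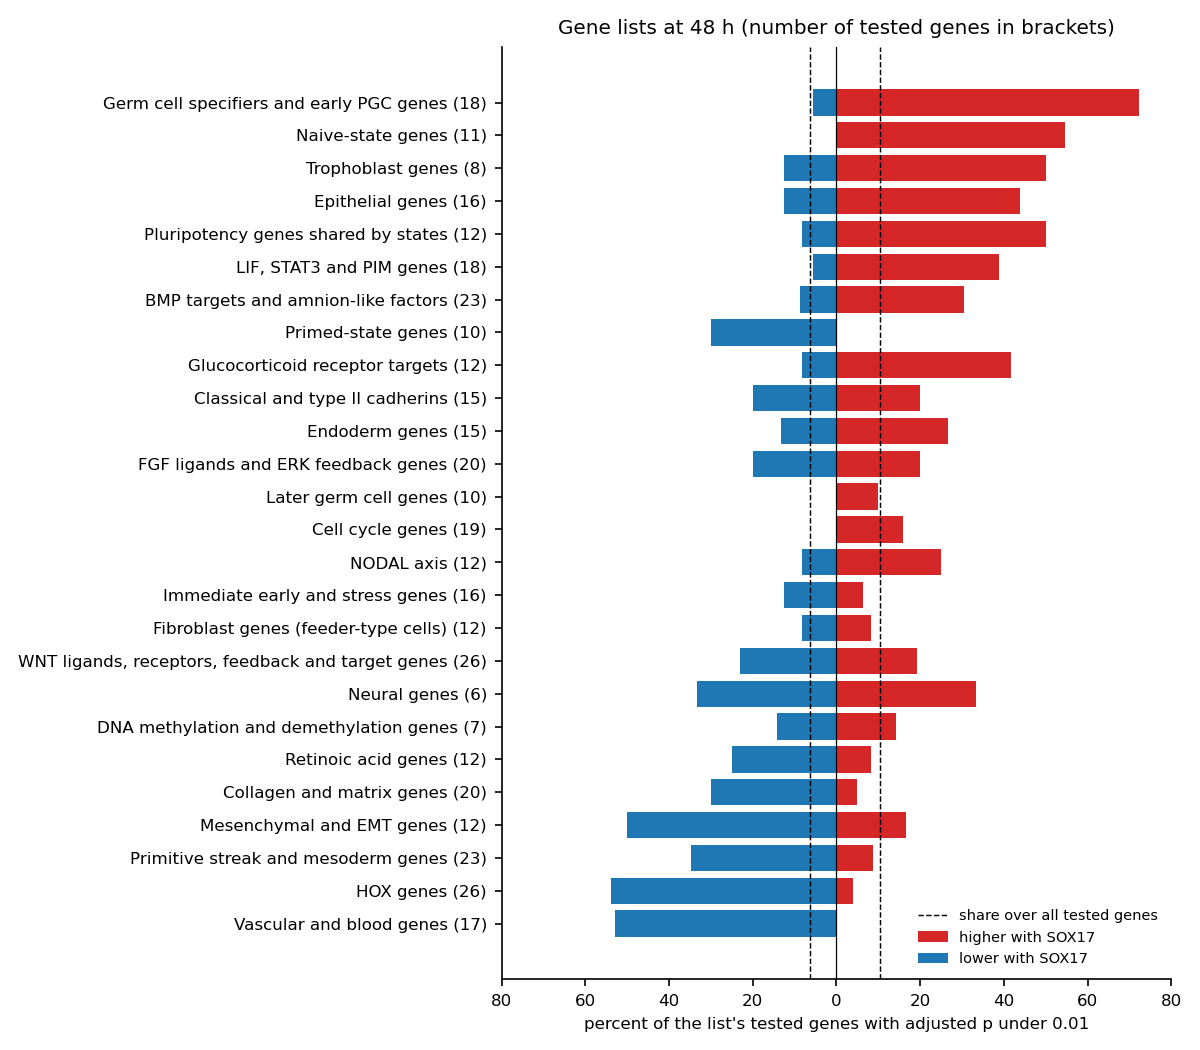
Percent of each list's tested genes that were higher (right) or lower (left) with SOX17 at 48 h at an adjusted p under 0.01 by limma, lists ordered by their median difference, with dashed lines at the shares over all tested genes (10.3% and 6.37%). Germ cell genes have the longest bar to the right (13 of 18) and HOX genes (14 of 26) and vascular genes (9 of 17) the longest to the left.

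The 48 h difference was set beside those at 12 h and 24 h, which were measured in separate libraries of the same line, 2 per group. The 133 DEGs higher at 48 h had a median difference of 0.86 at 12 h, 1.5 at 24 h and 2.5 at 48 h, the last being the value they were chosen on, and the 93 lower DEGs had medians of -0.78, -1.22 and -2.44. Of the 133, 96 had risen by 24 h (5.55% of all tested genes had) and 44 by 12 h (1.61% of all). Of the 93, 43 had fallen by 24 h (2.01% of all) and 18 by 12 h (0.795% of all). None of the 226 had passed in the opposite direction at 12 h or 24 h. Of the 58 DEGs of 24 h (0.518%), 42 were DEGs in the same direction at 48 h, and of the 18 of 12 h (0.161%), 12 were. RSPO3 was already at 102 and 98.1 TPM with SOX17 against 8.07 and 14.2 TPM without it at 12 h, and at 127 and 169 against 11.6 and 9.19 TPM at 24 h, and its differences were 3.11, 3.70 and 3.78 on the log2 scale. PRDM1 had differences of 2.08, 2.39 and 2.09 at the 3 times, and SOX15 of 2.07, 2.28 and 2.07, so their sizes at 12 h and 48 h were close.

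Other genes came apart between 24 h and 48 h. The difference at 48 h departed from that at 24 h by more than 4-fold in 15 genes (0.134% of those tested, 8 upward or 0.0714%, 7 downward or 0.0625%), tested as an interaction in the same limma fit. The 15 were chosen after their values were seen. TAT was at 1.2 and 0.93 TPM without and 3.97 and 4.24 TPM with SOX17 at 24 h, and its difference grew by 3.36 ± 0.53 on the log2 scale, adjusted p = 0.000315. CDH8 was at 2.01 and 2.19 TPM without and 11.6 and 11.4 TPM with SOX17 at 24 h, and its difference grew by 2.80 ± 0.38 on the log2 scale, adjusted p = 2.31e-05. UTF1 (growth of 2.47 ± 0.26 on the log2 scale, adjusted p = 4.08e-07) and NANOG (growth of 2.21 ± 0.24 on the log2 scale, adjusted p = 4.93e-07) had a different course. NANOG in BLSE went from 294 and 252 TPM at 12 h to 144 and 190.3 TPM at 24 h and 31.5 and 22.6 TPM at 48 h, and with SOX17 from 504 and 466 to 382 and 395 and 270.2 and 331 TPM, so it was lower at each later time in both groups, and more so in BLSE. CDH2 (growth of 2.05 ± 0.27 on the log2 scale, adjusted p = 1.95e-05) and TUBB2B, a neuronal tubulin (growth of 2.22 ± 0.33 on the log2 scale, adjusted p = 9.8e-05), were higher at 48 h than at 24 h with SOX17 and lower in BLSE. VCAM1, an adhesion molecule of activated endothelium and mesoderm, was at 21.8 and 14.8 TPM without and 34.7 and 22.1 TPM with SOX17 at 24 h, which did not pass. At 48 h it was at 32.3 and 35.5 TPM without and 4.75 and 5.81 TPM with SOX17, and its difference changed by -3.07 ± 0.41 on the log2 scale, adjusted p = 1.95e-05. These 7 departures held in each of the 8 fits that left out 1 library, and the other departures reported here did not. Against 12 h, 73 genes (0.652%) departed by more than 4-fold, 51 upward (0.455%) and 22 downward (0.196%). When the spread came only from the 8 libraries of each contrast, 0 genes departed between 24 h and 48 h by limma (34 at an unadjusted p under 0.05 with the other limits kept) and 11 between 12 h and 48 h.

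**Figure D5:**
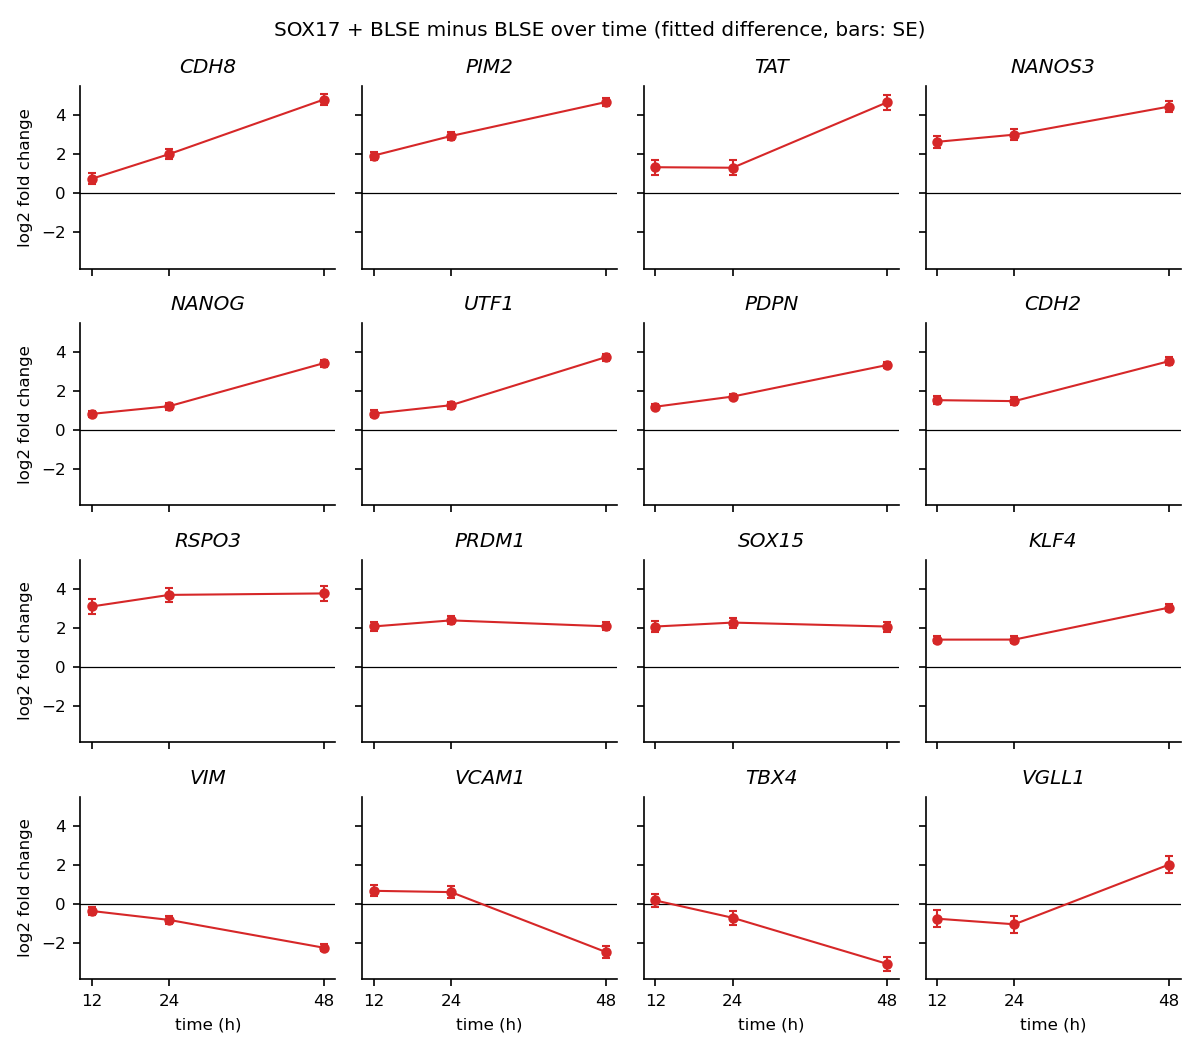
Difference between SOX17 + BLSE and BLSE (log2 scale, points, with bars of 1 SE from the limma fit) at 12 h, 24 h and 48 h for 16 genes, 2 libraries per group and time. RSPO3, PRDM1 and SOX15 are about level from 12 h, CDH8, TAT, NANOG and UTF1 grow between 24 h and 48 h, and VCAM1 has a point above 0 at 24 h and below 0 at 48 h.

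The starting cells gave a reference for the direction of change. Against cjESCs, 390 genes were DEGs at 48 h with SOX17 (3.48%), 226 higher (2.02%) and 164 lower (1.46%). Without SOX17 the count was 379 (3.38%), 192 higher (1.71%) and 187 lower (1.67%). Both counts use the same cjESC libraries, which were sorted and not aggregated. Of the 133 DEGs higher with SOX17, 38 had a cjESC level below both groups, 81 between them and 14 above both. Of the 93 lower DEGs the numbers were 36, 49 and 8. On the log2 scale the cjESC mean was nearer to SOX17 + BLSE than to BLSE for 44 of the 133 (33.1%) and for 66 of the 93 (71%), against 44% of all tested genes. The 133 and the 93 were chosen on the 2 groups used as reference points, so these shares are descriptions. Genes such as NANOG and UTF1 were in the first set, and TBX4, LEF1 and HLX, all low in cjESCs and high in BLSE, in the second.

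In SOX17 + LSE at 48 h, which also had SOX17-GR activated but lacked BMP4, the mean lay nearer to SOX17 + BLSE for 105 of the 133 (78.9%) and 81 of the 93 (87.1%), against 56.2% of all tested genes. Since the genes were chosen on the 2 groups that serve as the reference points, these shares are descriptions. TAT, GPR155 (3.5 and 4.02 TPM), DLX3 and VGLL1 were nearer to BLSE there. CDH8 (5.53 and 5.81 TPM) lay about midway between the groups on the log2 scale. NANOS3 was at 42.2 and 39.6 TPM, PIM2 at 63.2 and 79.4 TPM and PDPN at 385 and 454 TPM, between the groups and nearer to SOX17 + BLSE. In BLSE + IWR1 at 48 h, which had no SOX17-GR transgene, was pre-treated and started from cells kept in another medium, the mean was nearer to SOX17 + BLSE for 44 of the 133 higher DEGs (33.1%) and for 77 of the 93 lower DEGs (82.8%), against 50.2% of all tested genes. RSPO3 (4.14 and 2.46 TPM), FOXA2 (1.83 and 4.16 TPM), SCIN (3.84 and 6.98 TPM) and CDH2 (4.45 and 4.87 TPM) were low in BLSE + IWR1, while VIM (299 and 315 TPM), LEF1 (3.34 and 4.28 TPM), TBX4 (5.89 and 11.3 TPM) and ESM1 (2.65 and 1.44 TPM) were low there as in SOX17 + BLSE.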

How the data were processed

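Poly(A) RNA of the marmoset libraries was sequenced by the authors, and TPM was deposited for genes shared by marmoset and human. STAR and RSEM are named in the submitters' processing notes, with the genome Callithrix_jacchus_cj1700_1.1. The study called its DEGs with edgeR, which needs counts, so limma (3.58.1, R 4.3.3) was used here on log2(TPM + 1). Genes with a log2(TPM + 1) of 1.5 or more in at least 1 library (11197 of 14812) were fitted with 1 mean per condition over 54 libraries, a trended prior and Benjamini-Hochberg adjustment. A DEG had over 4-fold change, adjusted p under 0.01 and mean log2 level above 1.5. Interactions were contrasts in the same fit. The procedure was tested on simulated data with independent noise and large shifts planted in expressed genes that were not the most variable. That test therefore does not cover low or highly variable genes. The members, lists and tests were chosen with earlier results of these data known. Named genes were the 15 largest changes each way, genes the study names, the markers, and list genes past the threshold; others named were chosen after their values were seen. Of 591 locus symbols, 182 were given names from a RefSeq table. Read depth is unknown from TPM, so no counting intervals are given. Alternatives covered the pseudocount, filter, trend, scaling, libraries in the fit, a replicate block and each library left out. A few genes are not reported here.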

Additional observations from a re-analysis of the deposited data

Results flagged for a closer look

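The difference between SOX17 + BLSE and BLSE at 48 h departed from that at 24 h in 15 genes, tested as an interaction in limma, of which 14 are given. Upward departures on the log2 scale were 3.365 for TAT, 3.069 for VGLL1, 2.802 for CDH8, 2.465 for UTF1, 2.215 for TUBB2B, 2.211 for NANOG, 2.052 for CDH2 and 2.05 for ADIRF. Downward departures were -3.073 for VCAM1, -2.466 for BDKRB2, -2.369 for TBX4, -2.281 for A2M, -2.265 for CCDC80 and -2.154 for PTGER2. TAT, CDH8, UTF1, TUBB2B, NANOG, CDH2 and VCAM1 passed in all 8 fits that left out 1 library, the weakest being TAT without SOX17 + BLSE replicate 2 of 48 h (adjusted p = 0.00485). TBX4 passed in 0 of these 8 fits, PTGER2 in 2 and VGLL1, ADIRF, BDKRB2, A2M and CCDC80 in 1 each, the highest adjusted p among these being 0.133 for PTGER2 without BLSE replicate 2 of 48 h. Against 12 h, 73 genes departed in this way. Groups of 2 libraries were too small for a check of single outlying libraries.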

How the results depend on the processing

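The deviations of libraries numbered alike correlated across genes at r = 0.0204 at 48 h, 0.272 at 24 h and 0.207 at 12 h. With 2 numbers per group and no label tying them, they were taken to share only a number. The replicate block with all libraries left 226 DEGs, all shared with the fit without it. With the block and only the compared libraries, limma called 0 DEGs at 48 h (0 higher, 0 lower; 229 at an unadjusted p under 0.05), 0 between 24 h and 48 h, 2 between 12 h and 48 h, 0 against cjESCs with or without SOX17, and 0 of the 48 h DEGs in the same direction at 24 h or 12 h. With only the compared libraries and no block, it called 97 (70 higher, 27 lower), 0 between 24 h and 48 h (34 at an unadjusted p under 0.05), 11 between 12 h and 48 h, 192 against cjESCs with SOX17 and 92 without it. None of the 48 h DEGs (0) then passed at 24 h or 12 h, where 59 and 18 genes met the other limits at an unadjusted p under 0.05. A pseudocount of 0.1 gave 227 DEGs at 48 h (138 higher, 89 lower), but only 176 of them were among the 226. The total was therefore similar while the membership of the list depended on the pseudocount. Between 12 h and 48 h the same pseudocount gave 43 genes. No filter gave 8 and no trend 9 between 24 h and 48 h. Leaving out 1 library gave 203 to 254 DEGs at 48 h, 7 to 16 departures from 24 h, 45 to 79 from 12 h, and 31 to 41 48 h DEGs passing at 12 h, against 62 with all libraries. SOX2, not called, ranged from -0.347 to 0.216 and changed sign to 0.0607 without SOX17 + BLSE replicate 1. It was 0.216 without BLSE replicate 2. The causes were not tested beyond the fewer libraries in each fit.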
